A study of Mus musculus with 8 samples.

Results

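The Nat8 family is a cluster of genes for N-acetyltransferases that are made mainly in kidney and liver. Its 7 members described here (Nat8, Nat8f1, Nat8f2, Nat8f3, Nat8f5, Nat8f6 and Nat8f7) were taken by gene symbol from the 53700 genes of the expression table, and were selected on measured values, since their levels on the 3 diets had been seen when the list was drawn up. Levels by diet are therefore given as a description with no test. The comparison of libraries by the letter of their label was tested. It was not what the list was drawn up by, but it uses the same values. The letters are also spread unevenly over the diets, so a choice made with diet values in view is not independent of this comparison.

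Mercapturates are the form in which many toxins and drug metabolites leave the body. Glutathione S-transferases first couple the compound to glutathione, enzymes on the brush border of the proximal tubule trim the conjugate down to cysteine, and an acetyltransferase in the endoplasmic reticulum adds the final acetyl group. In humans NAT8 is the enzyme of that last step. Aminoacylases can take the acetyl group off again, and beta-lyases can cleave the cysteine conjugate into a reactive thiol.

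Kidney epithelial cells came from Pkd1KO mice, in which tamoxifen given at 5 to 6 weeks of age in 3 doses activates the ubiquitous CAGG-CreER and deletes floxed Pkd1 in all tissues. All 8 libraries carry this deletion, so no library is a control for it, and Pkd1 stood at 1.38 to 4.11 FPKM. Mice were fed 2.8 g per day for 1 week of a diet with 6% protein (LP, 2 libraries), 18% protein (NP, 3 libraries) or 60% protein (HP, 3 libraries), and the diets also differed in sucrose and starch. Each library is a pool of 2 to 3 mice, stained for macrophages (CD11b, F4/80) and for proximal tubule and collecting duct (the lectins LTL and DBA) before the sort. LP had the labels F2 and M, NP the labels F2, M and KO7, and HP the labels F1, F2 and M. The letters are not spelled out in the labels. The X-linked Xist, made in female cells, reached 0.81 FPKM in NP M and 1.09 FPKM in HP M, against 23.4 to 45.3 FPKM in the 4 F libraries. The Y-linked Ddx3y reached 9.74 to 12.4 FPKM in the 3 M libraries and 0.21 to 0.77 FPKM in the F libraries. The LP library labelled M also held 16.3 FPKM of Xist, so it goes against a pool of males only, and the calls and differences of the members by letter are given with and without it. KO7 has no letter and was left out of the comparison by letter. Of 17 proximal tubule markers, 16 were over 1 FPKM in every library. FPKM is a fragment count divided by transcript length and by sequencing depth, so levels can be set beside each other between genes. The table holds no counts, and depth was estimated at 26000000 to 34000000 fragments per library.

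All members lie on the minus strand of chromosome 6, in the order Nat8f7, Nat8f3, Nat8f6, Nat8f5, Nat8, Nat8f2 and Nat8f1, with Nat8f4 between the last pair. The regions before the start sites show which members are close copies there, and were matched for all 7 members in RefSeq (GRCm38.p6, where Nat8 has a second start). Nat8f6 and Nat8f7 are printed because their start regions were nearly the same while their levels were not. The 250 bases before each start are shown 5′ to 3′ on the minus strand, from chr6:85809878-85810127 for Nat8f6 and from chr6:85708562-85708811 for Nat8f7, with capitals at the bases that differ:
Nat8f6: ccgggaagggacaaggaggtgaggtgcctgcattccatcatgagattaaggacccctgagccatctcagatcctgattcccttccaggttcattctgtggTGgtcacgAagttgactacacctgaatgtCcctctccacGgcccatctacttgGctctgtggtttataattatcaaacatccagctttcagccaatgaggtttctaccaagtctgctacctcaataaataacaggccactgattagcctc
Nat8f7: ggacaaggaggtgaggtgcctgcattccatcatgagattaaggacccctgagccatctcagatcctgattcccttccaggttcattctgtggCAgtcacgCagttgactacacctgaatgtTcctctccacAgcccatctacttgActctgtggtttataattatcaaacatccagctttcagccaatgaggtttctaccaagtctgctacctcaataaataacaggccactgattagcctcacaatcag
Over 242 bases aligned without a gap, 6 differed. With the 50 bases after the start included, 286 of 292 aligned bases were identical (97.9%). Nat8f3 and the first start of Nat8 form another close pair, with 203 of 206 aligned bases identical (98.5%), and between Nat8f5 and Nat8f2 the share was 83 of 114 (72.8%).

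Nat8f6, Nat8f7, Nat8f5 and Nat8f2 held 2 short elements in common, which were picked after the sequences had been compared. They are shown as 60 bases each, from chr6:85809914-85809973, chr6:85708606-85708665, chr6:85820995-85821054 and chr6:85869118-85869177 (minus strand, GRCm38.p6), with GGTTTAT and CAGCCAAT in capitals:
Nat8f6, elements: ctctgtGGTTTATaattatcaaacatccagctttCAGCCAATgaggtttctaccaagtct
Nat8f7, elements: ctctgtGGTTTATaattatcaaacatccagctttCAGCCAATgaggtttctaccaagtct
Nat8f5, elements: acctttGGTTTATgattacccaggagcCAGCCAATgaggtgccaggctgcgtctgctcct
Nat8f2, elements: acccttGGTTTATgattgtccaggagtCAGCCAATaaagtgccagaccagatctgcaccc
The second element began 28 bases after the first in Nat8f6 and Nat8f7 and 21 bases after it in Nat8f5 and Nat8f2. On either strand, GGTTTAT was found in 2.4% and CAGCCAAT in 3.8% of 32851 mouse start regions of the same length. CAGCCAAT contains the CCAAT box, which alone was found in 37.4% of all start regions and in 6 of the 10 of the family (Nat8f4 included). The TATA box TATAAA, found in 13.6% of all, matched in Nat8f6 and Nat8f7 on the opposite strand, where it overlaps GGTTTAT. The HNF1 core GTTAAT, found in 7.1% of all, matched in Nat8f5 and at the second start of Nat8, and AGAACA, a core of androgen response elements, matched at the first start of Nat8 (19.0% of all). These are letter matches in a window and not sites of binding.

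Nat8f1 was the most abundant member in every library, at 360.05 to 566 FPKM. By the mean over all libraries Nat8 followed (67.8 to 309 FPKM), then Nat8f6 (25.1 to 160.1), Nat8f3 (30.1 to 69.0), Nat8f5 (10.7 to 70.0), Nat8f7 (14.2 to 31.7) and Nat8f2 (1.87 to 15.9 FPKM). The ranges of Nat8 and Nat8f1 did not overlap, while those of Nat8f6, Nat8f3, Nat8f5 and Nat8f7 did. The order was not the same in each library, since Nat8f7 exceeded Nat8f5 in all 4 F libraries and Nat8f3 exceeded Nat8f6 in HP F1, HP F2 and LP F2. The 7 genes summed to 574 to 1220 FPKM, of which Nat8f1 made up 46.3 to 71.3% and Nat8 11.8 to 25.3%. Among relatives by name, Nat8f4 stood at 2.95 to 4.29 FPKM, Nat8l, the aspartate acetyltransferase of the brain, at 0.23 to 0.64 FPKM, and the pseudogene Nat8b-ps at 0 to 0.35 FPKM.

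**Figure D1:**
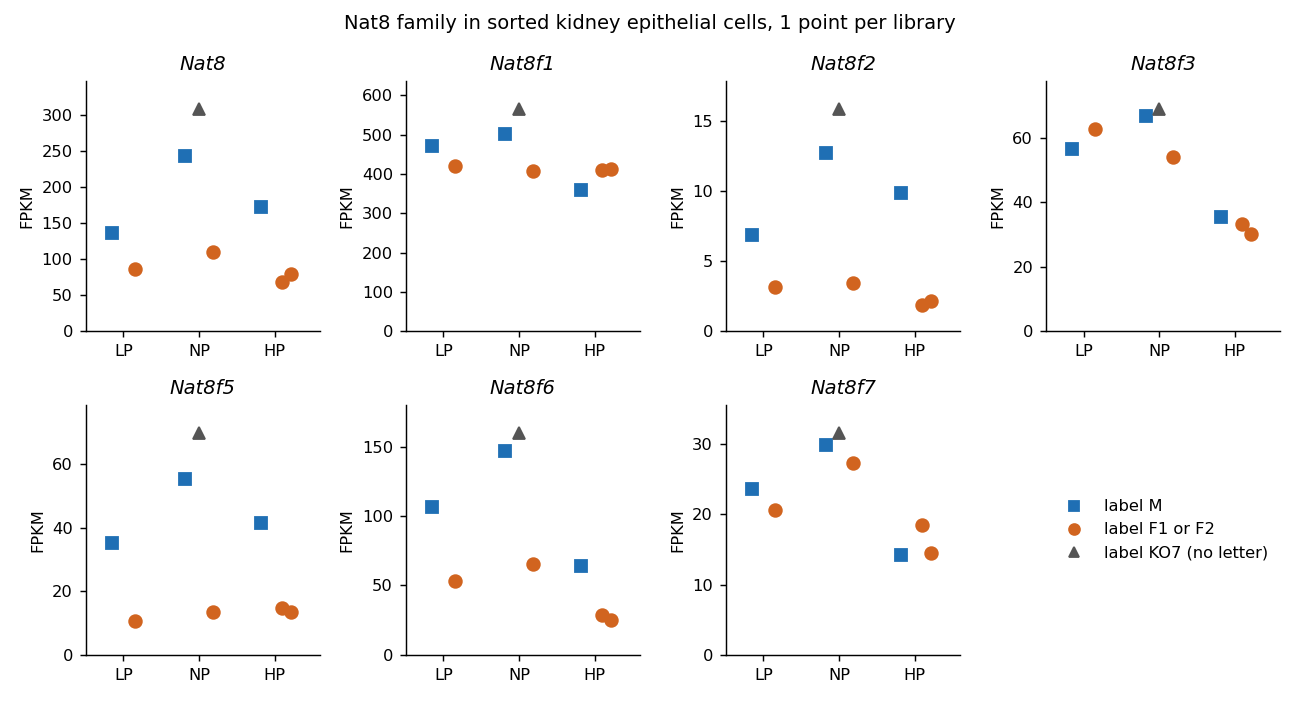
FPKM of the 7 genes in each of the 8 libraries, on linear axes that start at 0, by diet from low to high protein. Squares are libraries labelled M, circles F1 or F2, and the triangle KO7. Nat8, Nat8f2, Nat8f5 and Nat8f6 separate by letter within each diet, Nat8f3 and Nat8f7 lie lowest on HP, and Nat8f1 stays between 360.05 and 566 FPKM.

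Some members cannot be counted apart with full certainty. In GENCODE M21 transcripts, 53.5% of the 150-base windows of Nat8f7, 37.6% of those of Nat8f3 and 33.6% of those of Nat8f6 recur in another family gene, mostly among these 3. The share was 3.3% for Nat8f1, 1.9% for Nat8f2 and 0% for Nat8 and Nat8f5. With windows of 75 bases it was 75.3% for Nat8f7, 58.3% for Nat8f6, 48.4% for Nat8f3, 10.8% for Nat8f2, 9.4% for Nat8f1, 6.8% for Nat8f5 and 3.4% for Nat8. RSEM divides reads that fit several genes, so values of Nat8f3, Nat8f6 and Nat8f7 rest partly on that division, and Nat8f6 also overlaps Nat8f5 in the annotation. The sum of the 3 genes, added after the values were seen, is given beside their own values for this reason.

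The first question was whether the family differed between libraries labelled M and F at the same diet. Nat8, Nat8f2, Nat8f5 and Nat8f6 were higher in the M libraries, 2.02-fold to 3.21-fold on the scale of FPKM + 1. Nat8f1, Nat8f3 and Nat8f7 did not pass the test, and their differences lay close to 0. Thus 4 of 7 members were higher and none lower, against 1.54% of 13485 genes tested that were higher and 1.51% that were lower (limma, Benjamini-Hochberg adjusted p under 0.05). The members were not chosen independently of the letter, so these shares are no test of the family. The median difference of the members was 1.02 on the log2 scale, against 0.01 for all genes. Nat8f4, which lies in the same cluster but is not among the 7, differed by 0.03 (SE 0.16) and did not pass.

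Nat8f5 had the largest difference in the family. It stood at 35.3, 55.5 and 41.6 FPKM in LP M, NP M and HP M. In the F libraries it stood at 10.7 (LP F2), 13.4 (NP F2), 14.6 (HP F1) and 13.5 FPKM (HP F2). Every M library lay above every F library, with means of 44.1 ± 10.3 FPKM in M (SD, n = 3) and 13.1 ± 1.65 FPKM in F (SD, n = 4). The difference was 1.68 on the log2 scale (SE 0.13, adjusted p = 0.0002, limma).

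Nat8f2 was the least abundant member and also separated fully. Its levels were 6.84, 12.7 and 9.85 FPKM in LP M, NP M and HP M. They were 3.12 (LP F2), 3.44 (NP F2), 1.87 (HP F1) and 2.16 FPKM (HP F2) in the F libraries. The difference was 1.51 on the log2 scale (SE 0.20, adjusted p = 0.00502, limma).

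Nat8, the gene whose human counterpart is the known mercapturate acetyltransferase, stood at 136, 243 and 172 FPKM in LP M, NP M and HP M. In the F libraries it stood at 86.6 (LP F2), 111 (NP F2), 67.8 (HP F1) and 80.1 FPKM (HP F2). The lowest M library was above the highest F library, and the difference was 1.02 on the log2 scale (SE 0.13, adjusted p = 0.00441, limma). M over F was 1.57 on LP, 2.20 on NP and 2.33 on HP.

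Nat8f6 stood at 106, 147 and 64.3 FPKM in LP M, NP M and HP M, against 53.2 (LP F2), 65.2 (NP F2), 28.6 (HP F1) and 25.1 FPKM (HP F2) in the F libraries. M lay above F within each diet, by 2.00 to 2.40 times, while across diets HP M lay just under NP F2. The difference adjusted for diet was 1.14 on the log2 scale (SE 0.10, adjusted p = 0.000653, limma).

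The other members gave intervals that held 0. The M minus F difference was 0.11 for Nat8f3 (95% interval -0.15 to 0.37), 0.06 for Nat8f1 (-0.19 to 0.32) and 0.02 for Nat8f7 (-0.29 to 0.33), all on the log2 scale, which leaves room for differences of that size. Nat8f1 averaged 444 ± 74.5 FPKM in M (SD, n = 3) and 412 ± 5.05 FPKM in F (SD, n = 4). Across all tested genes, 5.09% had every M library above every F library, and in the family 3 of 7 did (Nat8, Nat8f2 and Nat8f5).

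Nat8f6 and Nat8f7, the pair with nearly the same start region, thus differed in their pattern. The ratio of Nat8f6 to Nat8f7 was 4.50, 4.92 and 4.53 in LP M, NP M and HP M. It was 2.58 (LP F2), 2.39 (NP F2), 1.54 (HP F1) and 1.74 (HP F2) in the F libraries. The ratio was higher in M by 1.11 on the log2 scale. An exact two-sided permutation test of the letter within diets gave p = 0.0833, the smallest that its 12 assignments allow, and the pair was chosen after the values were seen. Without LP M the difference was 1.26 (exact p = 0.167, the smallest that 6 assignments allow). The summed level of Nat8f3, Nat8f6 and Nat8f7 was 186, 244 and 114 FPKM in LP M, NP M and HP M. In the F libraries it was 137 (LP F2), 147 (NP F2), 80.4 (HP F1) and 69.7 FPKM (HP F2), so M over F was 1.37 to 1.66 within diets.

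The 4 calls did not rest on 1 library. Without LP M, the library that held Xist, only HP and NP give a difference between the letters. It was then 1.18 for Nat8 (adjusted p = 0.000393), 1.75 for Nat8f2 (0.000921), 1.70 for Nat8f5 (0.000172) and 1.20 for Nat8f6 (0.000457, limma), with 406 genes passing in all. Nat8f1 (0.02), Nat8f3 (0.22) and Nat8f7 (-0.06) again did not pass. Without HP F1 the 4 differences were 0.96, 1.45, 1.72 and 1.16 in the same order, with adjusted p = 0.0395, 0.0396, 0.00527 and 0.0125 (limma). The count over all genes changed more, from 411 to 160 without HP F1, to 255 without HP F2 and to 250 without HP M, each with 4 members. KO7, which had no part in the test, stood at 309 FPKM of Nat8, 15.9 of Nat8f2, 70.0 of Nat8f5 and 160.1 of Nat8f6. KO7 was thus 1.09 to 1.27 times NP M for these 4 genes and 2.46 to 5.24 times NP F2, and its Ddx3y was 7.99 FPKM with Xist at 0.78 FPKM.

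Some markers of cell types differed by letter. The summed level of 17 proximal tubule markers was 8260 to 10000 FPKM in M and 7720 to 9060 FPKM in F, and the groups overlapped. The limma test called 2 of these higher in M and 3 lower. The summed level of 4 S3 segment markers was 235 to 238 FPKM in M and 29.6 to 33.2 FPKM in F. Slc7a13, Slc22a30 and Cyp7b1 were higher, while Slc5a1 was lower, at 11.1 to 18.2 FPKM in M and 21.7 to 26.9 FPKM in F. Slc7a13 and Cyp7b1 are known to be higher in male mouse kidney. No marker of either list was at 0 in all libraries. M minus F lay below 0 for 5 of 5 thick ascending limb markers, 6 of 6 of endothelium and 5 of 5 of red cells. The same held for 4 of 4 of intercalated cells, 3 of 4 of the distal convoluted tubule and 2 of 3 of hepatocytes. It lay above 0 for 7 of 8 of macrophages, 3 of 5 of principal cells and 3 of 5 of S1. Of these lists, only the hepatocyte marker Alb passed (lower in M, limma). The part of all these markers in the result was not tested. In bulk RNA, fewer cells of a type and less RNA per cell cannot be told apart.

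**Figure D2:**
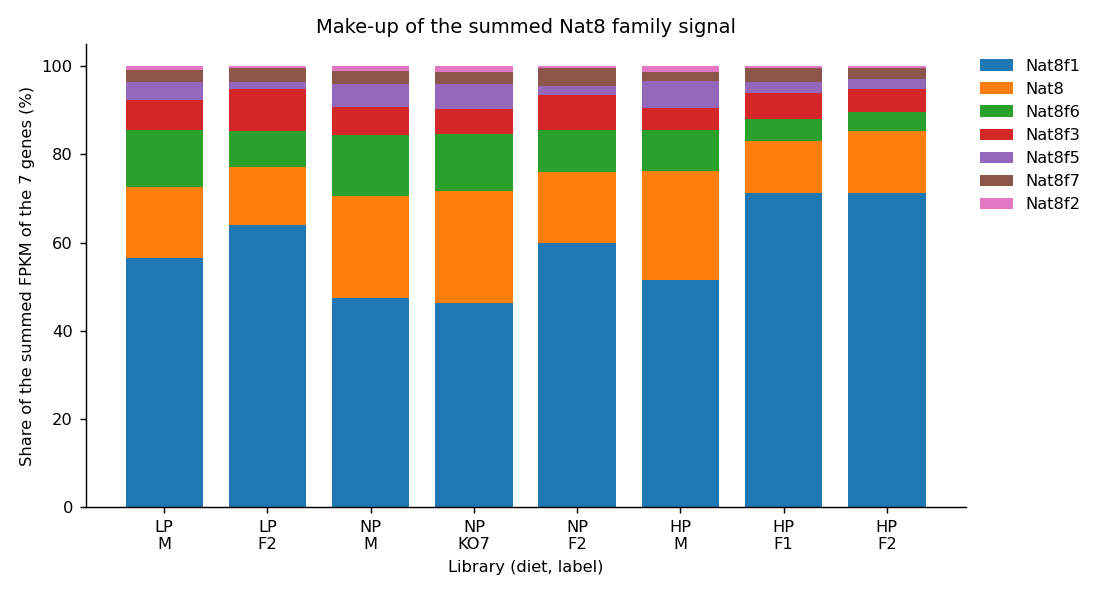
Share of each gene in the summed FPKM of the 7 genes, in percent, for each library, with diets from low to high protein and M left of F. Nat8f1 makes up 51.6% in HP M and 71.3% in each of the F libraries on HP, and Nat8f6 4.3 to 13.9%.

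Diet values follow as a description. Every HP library lay below every NP and LP library for Nat8f3 and Nat8f7. For Nat8f6 every HP library lay below every NP library but not below every LP library. The share of all genes with HP below NP alone was not counted, so this is not read further. Against the mean of NP and LP, all 7 members lay lower on HP, with a median of -0.68 on the log2 scale against -0.05 for all genes. With the letter as a covariate and without KO7, the median was -0.28 and Nat8f5 lay above 0, at 0.09. Nat8f4, which lies in the same cluster but is not among the 7, differed by -0.13 (SE 0.13). The full separation of 2 of 7 members stands beside 4.23% of all genes, and is not read further because diet values were in view when the members were chosen.

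Nat8f6 had the largest HP difference. It stood at 106 and 53.2 FPKM on LP (M, F2), at 147, 160.1 and 65.2 FPKM on NP (M, KO7, F2) and at 64.3, 28.6 and 25.1 FPKM on HP (M, F1, F2). The highest HP library overlapped LP, since HP M exceeded LP F2. Within a letter, HP was 0.437 times NP and 0.604 times LP among M libraries. Among F libraries it was 0.411 times NP and 0.504 times LP. Each side is a single library, or the mean of F1 and F2 for F on HP, so overlap within a letter cannot be judged. The difference from the mean of NP and LP was -1.35 on the log2 scale (SE 0.40), and -1.05 (SE 0.10) with the letter as a covariate and without KO7.

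Nat8f3 had the smallest spread within diets of the 7 (SD 0.15 on the log2 scale). It stood at 56.4 and 62.7 FPKM on LP (M, F2), at 66.9, 69.0 and 54.1 FPKM on NP (M, KO7, F2) and at 35.5, 33.3 and 30.1 FPKM on HP (M, F1, F2). LP averaged 59.6 ± 4.44 FPKM (SD, n = 2), NP 63.3 ± 8.06 FPKM (SD, n = 3) and HP 33.0 ± 2.67 FPKM (SD, n = 3). The HP difference from the other diets was -0.88 on the log2 scale (SE 0.13), and -0.83 with the letter as a covariate.

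Nat8f7 stood at 23.6 and 20.6 FPKM on LP (M, F2), at 29.9, 31.7 and 27.3 FPKM on NP (M, KO7, F2) and at 14.2, 18.6 and 14.5 FPKM on HP (M, F1, F2). The HP difference was -0.68 (SE 0.13), and -0.65 with the letter as a covariate. HP F1 came closest to the LP libraries, and after rescaling each library to the same FPKM sum only Nat8f3 stayed fully separated. As a share of the family sum, no member had every HP library below the others. The sum of Nat8f3, Nat8f6 and Nat8f7 on HP was 0.467 times NP and 0.611 times LP among M libraries, and 0.512 times NP and 0.55 times LP among F libraries.

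For the members that differed by letter, the diet values depended on which libraries were compared. The HP difference was -0.60 (SE 0.39) for Nat8, -0.71 (SE 0.55) for Nat8f2 and -0.41 (SE 0.60) for Nat8f5. With the letter as a covariate and without KO7 it was -0.27, -0.28 and 0.09. HP over LP was 1.27 for Nat8 and 1.44 for Nat8f2 among M libraries, and 0.854 and 0.646 among F libraries. The M ratios rest on LP M, the library that also held 16.3 FPKM of Xist, and the part of this in them was not tested. Nat8f1 differed by -0.24 (SE 0.14), and by -0.18 with the letter. Over the 6 libraries labelled F2 or M, and with that label as a replicate block, the differences were -0.18 for Nat8, -0.22 for Nat8f1, -0.19 for Nat8f2, -0.85 for Nat8f3, 0.04 for Nat8f5, -1.07 for Nat8f6 and -0.77 for Nat8f7.

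**Figure D3:**
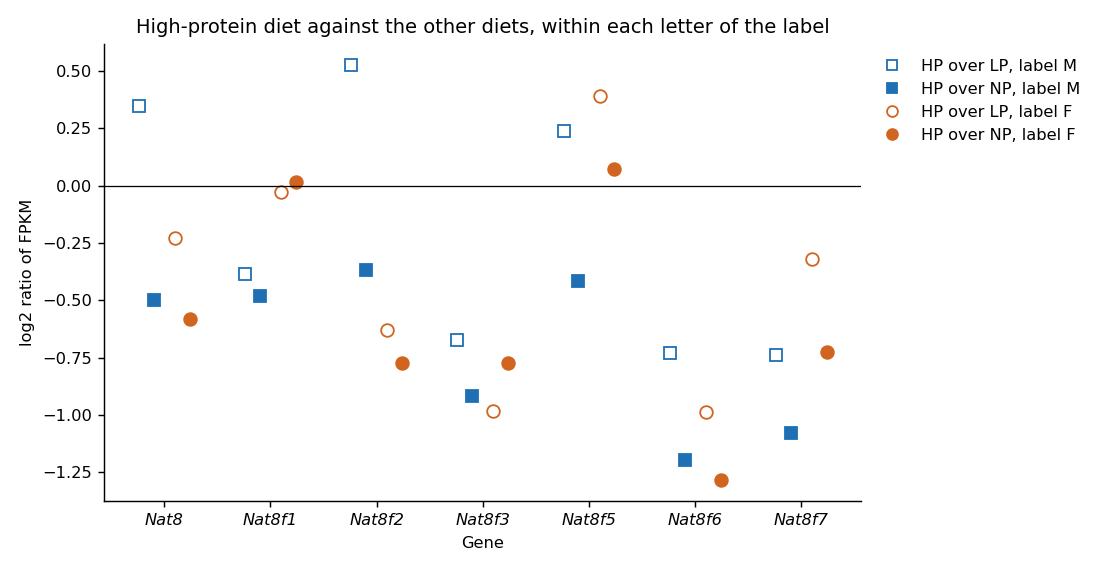
Log2 ratio of FPKM on HP over LP (open) and HP over NP (filled), among M libraries (squares) and F libraries (circles, mean of F1 and F2 on HP). The 4 ratios of Nat8f3, Nat8f6 and Nat8f7 lie below 0, and those of Nat8, Nat8f2 and Nat8f5 lie on either side of it.

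Markers of the proximal tubule summed to 8160 to 8270 FPKM on LP, to 9060 to 10000 FPKM on NP and to 7720 to 8880 FPKM on HP. Those of the thick ascending limb summed to 576 to 632 FPKM on LP, 781 to 1630 FPKM on NP and 911 to 1880 FPKM on HP. Red cell markers summed to 129 to 151 FPKM on LP, 91.7 to 207 FPKM on NP and 227 to 427 FPKM on HP. Endothelial markers summed to 50.0 to 56.4 FPKM on LP, 41.7 to 59.7 FPKM on NP and 52.6 to 111 FPKM on HP. The S1 segment markers summed to 774 to 834 FPKM on LP, 806 to 1010 FPKM on NP and 1050 to 1390 FPKM on HP, and those of the distal convoluted tubule to 71.7 to 87.8, 106 to 246 and 128 to 328 FPKM on LP, NP and HP. Macrophage markers summed to 89.1 to 99.9 FPKM on LP, 41.1 to 95.9 FPKM on NP and 84.9 to 126 FPKM on HP. Principal cell markers summed to 143 to 160 FPKM on LP, 277 to 469 FPKM on NP and 225 to 351 FPKM on HP. Markers with an HP difference above 0 were 5 of 5 for the thick ascending limb, 6 of 6 for endothelium and 5 of 5 for S1. They were 4 of 4 for the distal convoluted tubule, 5 of 5 for principal cells, 4 of 4 for intercalated cells and 3 of 3 for hepatocytes. They were 4 of 5 for red cells, 7 of 8 for macrophages, 2 of 4 for S3 and 7 of 17 for the proximal tubule. None passed the test (limma). At an unadjusted p under 0.05 (limma), all 6 of endothelium were higher, 4 of 5 of thick ascending limb and red cells and 3 of 5 of S1. Of the proximal tubule 2 were higher and 3 lower, and of all 13566 genes 553 and 942. In HP against LP, all 5 of principal cells were higher, and 4 of 5 of S1 and red cells. So were 3 of 4 of the distal convoluted tubule and 4 of 6 of endothelium. Of all genes 687 were higher there and 993 lower. Other lists had smaller shares. The part of all these markers in the diet values was not tested.

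Likeness between members was measured over the 8 libraries, which share diet and letter. On log2(FPKM + 1), Pearson's r was 0.98 between Nat8 and Nat8f2, 0.94 between Nat8 and Nat8f5, 0.96 between Nat8f2 and Nat8f5 and 0.88 between Nat8f3 and Nat8f7. Nat8f6 correlated at 0.91 with Nat8 and at 0.84 with Nat8f3, and the lowest value was 0.42, between Nat8f3 and Nat8f5. Among 5608 other genes with a mean of at least 10 FPKM, those most like Nat8f6 were Nudt19, a CoA diphosphatase (0.976), Cndp1, a dipeptidase (0.970), Fhl1 (0.968), Inmt, an amine methyltransferase (0.966), and Sephs2, a selenophosphate synthetase (0.965). Those most like Nat8f1 were Dnal4 (0.987), Galt, of galactose breakdown (0.964), Gpc3 (0.942), Nudt22 (0.929) and Rnf114 (0.922).

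The rest of the mercapturate pathway was set beside the family through a list of 40 genes by function, of which 37 were tested. Between M and F, 4 genes were higher and 12 lower, with a median of -0.32 on the log2 scale against 0.01 for all genes. At the conjugation step, 9 of 19 glutathione transferases were lower in M and none higher. The largest was Gsta4, at 48.9 ± 15.7 FPKM in M (SD, n = 3) and 222 ± 37.0 FPKM in F (SD, n = 4), a difference of -2.23 (adjusted p = 0.000939, limma). Gsta1 (-1.72) and the far more abundant Gsta2 (-1.17) followed, the last at 613 ± 44.0 FPKM in M (SD, n = 3) and 1400 ± 152 FPKM in F (SD, n = 4). Gsta3, Gstm7, Gsto1, Gstk1, Mgst1 and Mgst3 were also lower (-0.51 to -0.74). The brush border enzymes Ggt1 (0.33), Dpep1 (0.05) and Anpep (0.03), which cut the conjugate down to cysteine, did not pass, while the peptidase Lap3 was higher (0.58).

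The steps that compete with or undo acetylation each held 1 gene higher and 1 lower in M. Of the beta-lyases, which act on the same cysteine conjugates, Kyat1 was higher by 1.84 (SE 0.13, adjusted p = 0.00014, limma). Its levels were 56.8, 80.7 and 51.9 FPKM in LP M, NP M and HP M, and 14.9 to 17.4 FPKM in the 4 F libraries. Kyat3 was lower, at a difference of -0.95 (adjusted p = 0.00723, limma). Of the aminoacylases, Acy3, which takes the acetyl group off mercapturates, was higher by 1.07 (adjusted p = 0.0195, limma), at 775 ± 126 FPKM in M (SD, n = 3) and 360 ± 116 FPKM in F (SD, n = 4). Acy1 was lower, at a difference of -1.15 (adjusted p = 0.00505, limma). Among transporters, Slc22a6 (OAT1, which takes organic anions up from blood) was higher by 0.66 and the exporter Abcc4 lower (-1.03), while Slc22a8 (-0.40) and Abcc2 (0.06) did not pass. Slc33a1, which carries acetyl-CoA into the endoplasmic reticulum, differed by 0.24 and did not pass.

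More of the pathway calls than of the members' changed with single libraries. Of the 16 genes, 9 passed without HP F1, 12 without HP F2, 8 without HP M and 13 or 14 without any other library. Among the transferases, 5 passed without HP F1, where Gsta3, Gstk1, Mgst1 and Mgst3 did not, 6 without HP F2, where Gstk1, Gstm7 and Mgst3 did not, and 4 without HP M, where Gsta3, Gstk1, Gstm7, Mgst1 and Mgst3 did not. Gstk1 and Gstm7 also missed the threshold without NP F2, NP M, LP F2 or LP M. Lap3 did not pass without HP F1, HP F2, HP M, LP F2 or LP M, Acy3 without HP F1 or HP M, Kyat3 without HP F1, and Abcc4 without HP M. Kyat1 and Nat8f5 passed in every alternative of this comparison that was run.

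**Figure D4:**
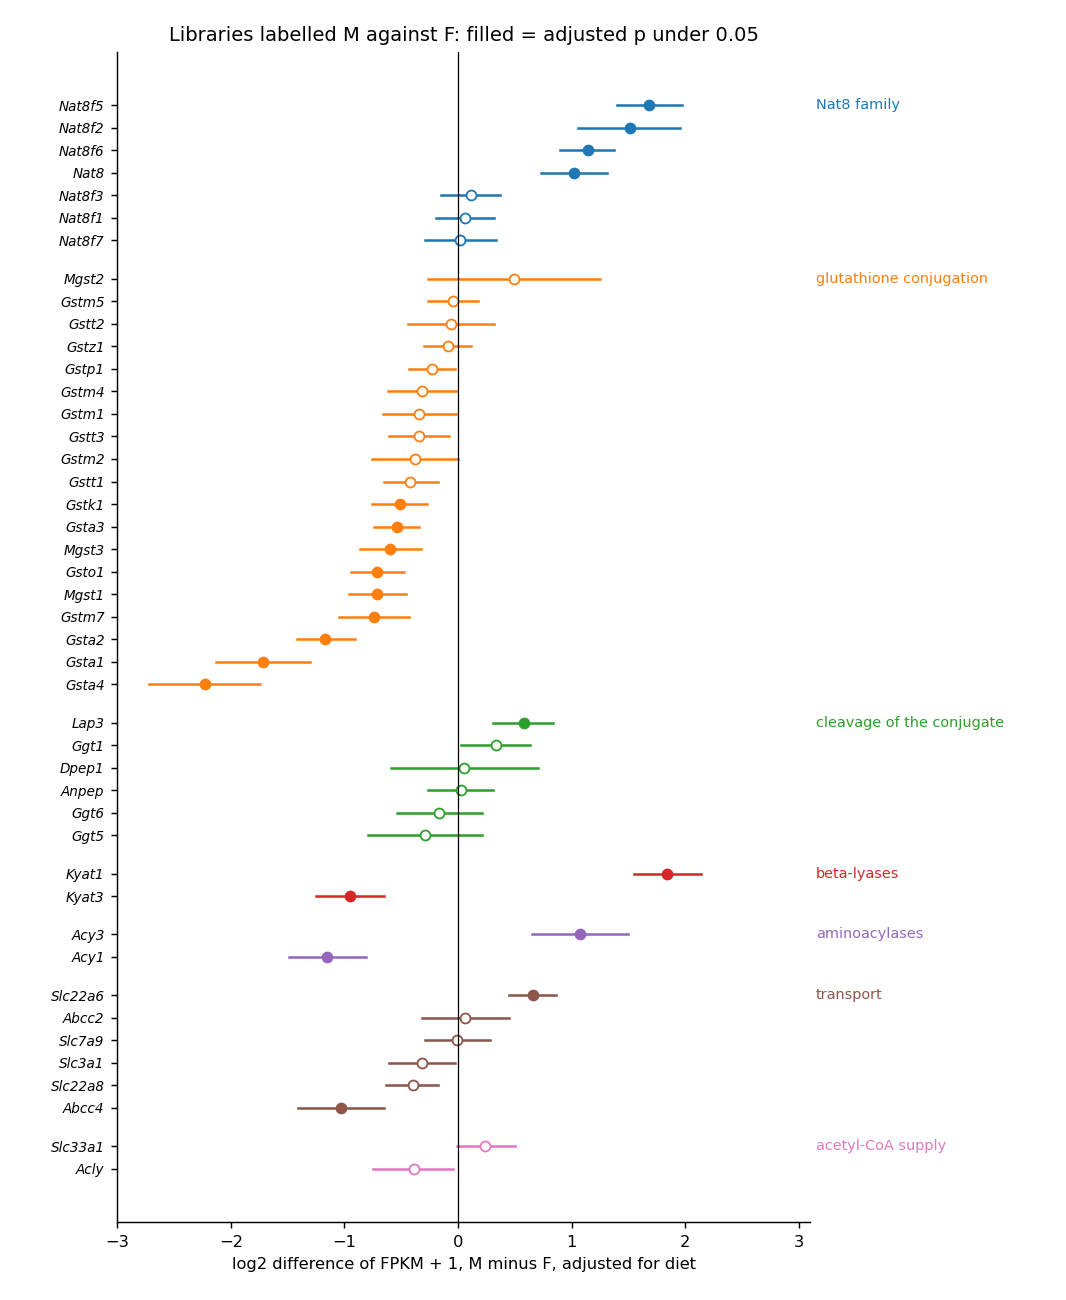
Difference between libraries labelled M and F, adjusted for diet, in log2 of FPKM + 1, for the family and the tested pathway genes. Points are estimates, lines 95% intervals, and filled points passed an adjusted p of 0.05. Nat8f5, Nat8f2, Nat8f6 and Nat8 lie at 1.02 to 1.68, and 9 of 19 glutathione transferases lie below 0 with filled points.

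On the diets, none of the 37 pathway genes passed by limma against the mean of NP and LP, where 0.00737% of all genes did. At an unadjusted p under 0.05 (limma), 1 was higher and 5 lower, against 553 and 942 of all 13566 genes tested. The median was -0.16, against -0.05 for all genes. None passed in HP against NP (0.0221% of all genes), HP against LP (0.0147%) or LP against NP (0.0147%). At an unadjusted p under 0.05 (limma), HP against NP had 0 higher and 2 lower, against 402 and 803 of all genes. HP against LP had 1 and 1 (687 and 993 of all genes), and LP against NP 1 and 1 (620 and 789). The genes with the largest HP differences were Gsta1 (0.74), Gstm2 (0.62) and Dpep1 (0.56) above 0, and Acy3 (-0.71), Kyat1 (-0.57) and Lap3 (-0.53) below 0, on the log2 scale. None of these passed.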

How the data were processed

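The deposited FPKM values cover 53700 genes and come without counts. The authors obtained them with RSEM 1.3.3 on GENCODE M26 (GRCm39), after adapter trimming (Trim Galore 0.6.7). The labels name a NEBNext kit and the study's methods a stranded Illumina kit, so strand use is not settled. Symbols came from GENCODE M21, which matched 52093 identifiers and left 1607 without one. Fragment numbers were estimated from the steps between low values. The depth and fragment length that put most of these values within 0.15 of a whole number were taken, which gave 63.5 to 67.1%. An even spread gives 30.0% without such a search, so that share is not a fair comparison. The fitted fragment length ran from 100 bases in NP M to 360 bases in LP M, so depth is a rough estimate.

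Differences were fitted with limma 3.58.1 (R 4.3.3, trend) on log2(FPKM + 1), a scale that understates changes of low genes, keeping genes that reached 1 FPKM in 2 or more libraries. The diet fit used all 8 libraries (13566 genes), and M against F used 7 libraries with diet as a factor (13485 genes). P-values were adjusted by Benjamini-Hochberg over all genes. Start regions were aligned locally with Biopython 1.88. The fits were also tested on simulated data. In the diet fit, p-values measure the spread between pools within a diet, which includes the difference between the letters. For M against F they measure the spread that diet and letter leave over. Only HP F1 and HP F2 share both, so most of it is a difference of M from F that varies between diets. In both fits limma also draws on the spread of other genes.

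The members and lists were chosen with earlier results of these data known. All members, the relatives, 12 pathway genes, those passing and the 3 most changed in each direction are named. The printed motifs and the Nat8f6 and Nat8f7 pair were chosen after values were seen. Deviations from the diet mean correlated at 0.145 to 0.346 in the 6 pairs of libraries that share the label F2 or M, all over 0.1. A replicate block was therefore run for the diets. Libraries that share one of these labels also share the letter, so the correlations cannot show a pairing beyond the letter. The block for the diets is thus the letter as a covariate, without HP F1 and KO7. For M against F the label is the letter, so the block there is diet, which the fit already holds. Alternatives were other pseudocounts, filters, scalings, no trend, no diet term and each library left out.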

Additional observations from a re-analysis of the deposited data

Results flagged for a closer look

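Several ratios of family members pointed in opposite directions in different subsets of the libraries. Each rests on 1 library a side (the mean of F1 and F2 for F on HP), and none of these differences was tested. Wherever LP enters for M, that library is LP M, which also held 16.3 FPKM of Xist. HP over LP was 1.27 among M libraries and 0.854 among F libraries for Nat8, and 1.44 among M and 0.646 among F for Nat8f2. HP over NP was 0.717 among M and 1.01 among F for Nat8f1, and 0.749 among M and 1.05 among F for Nat8f5. LP over NP was 0.937 among M and 1.03 among F for Nat8f1, and 0.844 among M and 1.16 among F for Nat8f3. M over F, on LP, NP and HP, was 1.12, 1.23 and 0.877 for Nat8f1, 0.900, 1.24 and 1.12 for Nat8f3, and 1.15, 1.10 and 0.859 for Nat8f7. Nat8f6 had none of these reversals.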

How the results depend on the processing

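Of the M against F counts, the number of all genes passing (411) was 35 with no filter, 229 with no trend and 101 with no diet term. The members passing (4) were 2 with no filter and 2 with no diet term. The pathway genes passing (16) were 1 with no filter, 10 with median-of-ratios scaling, 10 with no trend and 5 with no diet term. With single libraries left out, the counts were 160 to 406 for all genes, 8 to 14 for the pathway and 4 throughout for the members. Without HP M, 8 pathway genes and 250 genes in all passed, and without HP F1 9 and 160. The planned replicate block (only labels F2 and M, with diet as the block) is the same fit as leaving out HP F1, since diet is already a term, and gave the same 160 and 9, so it adds no test of pairing. The fit with no filter tests more genes, and the one with no diet term leaves diet in the spread. Nat8 lost its call under no filter and no diet term, Nat8f2 under no filter and Nat8f6 under no diet term, with directions kept. The median HP difference of the members (-0.68) was -0.93 to -0.37 with single libraries left out, -0.28 with the letter as a covariate and -0.22 with a replicate block on the label (F2 or M). The members with every HP library lowest (2) were 1 after rescaling to the same sum and 0 as a share of the family. Depth is known only as an estimate from the FPKM steps, so no counting interval is given.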
